A study of Rattus norvegicus with 13 samples.

Results

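The circadian clock repressors and output genes are 10 genes, Per1, Per2, Per3, Cry1, Cry2, Nr1d1, Nr1d2, Dbp, Tef and Npas2, each chosen by its symbol in the array's annotation. All 10 were measured, each by 1 probe set, a group of short probes whose signals are combined to 1 value, among 15633 probe sets with at least 1 gene. The brains came from 15 month old male Fischer F344 rats, an inbred strain, taken without the cerebellum. Mothers of the fructose group (6 arrays) ate a high fructose diet through gestation and lactation, and mothers of the control group (7 arrays) a control diet, and all offspring were weaned on day 20 to chow. The labels name neither the hour at which each brain was taken, nor the lighting schedule, nor the litter, nor whether each array holds a separate animal, so a p-value measures only how far these samples spread, which may be technical.

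The mammalian clock is a feedback loop in which CLOCK, or its relative NPAS2, pairs with BMAL1 and switches on genes that carry an E-box in their control regions. Among these are the Period and Cryptochrome genes, whose proteins then silence CLOCK and BMAL1, the Rev-erb genes Nr1d1 and Nr1d2, whose proteins silence Bmal1 and Npas2 through ROR elements, and the output factors Dbp and Tef, which act through D-boxes. In rodent tissues Dbp, Tef, Per3 and the Rev-erb genes therefore run near each other in phase, and Bmal1 runs opposed to them. Outside the suprachiasmatic nucleus of the hypothalamus, the forebrain keeps clocks of its own.

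These elements were looked for in the 250 bases before the transcript start of each gene in the RefSeq promoter table (build GRCr8), which held 9 of the 10 genes and Bmal1. The motifs were the E-box CACGTG, the E-prime box CACGTT, the D-box TTATGTAA or TTACGTAA, the core TAGGTCA of the ROR element and the cyclic AMP response element TGACGTCA, each on both strands. All matches found are shown, since these are the letters that clock factors are known to bind, and a match is no evidence of binding here. They are given on the gene strand, 5′ to 3′, with the match in capitals.
Per2 E-prime box: aacgcgcgcggtCACGTTttccactatgtg
Per2 D-box: ccatgtgcgtcTTATGTAAagagagcgacg
Cry2 E-prime box: acacatggtgggAACGTGagggggcggggc
Nr1d1 E-prime box: cgcatagagctcAACGTGcccgctgctgga
Tef E-box: cacctggcccagCACGTGtctacatcgttt
Bmal1 ROR element core: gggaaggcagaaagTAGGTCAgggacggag
The Per2 stretches lie on the minus strand at chr9:99497038-99497067 and chr9:99497167-99497196, with the E-prime box starting 62 bases and the D-box 192 bases before the start. That of Cry2 lies on the minus strand at chr3:98860632-98860661, that of Nr1d1 on the minus strand at chr10:84231969-84231998, that of Tef on the plus strand at chr7:115206617-115206646 and that of Bmal1 on the plus strand at chr1:176766298-176766327. An E-box stood in 1 of the 9 genes, against 5.59% of the 33469 promoters of the table, an E-prime box in 3 of 9 (4.07% of promoters) and a D-box in 1 of 9 (0.932%). The ROR element core (2.26% of promoters) and the cyclic AMP response element (1.59%) stood in 0 of the 9. For Per1, Per3, Tef and Npas2 the whole window lies inside the span of the gene's longest model, and for Per2 and Bmal1 76 and 106 bases of it do, so other starts of these genes were not searched.

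Every value below is a log2 signal, on which 1 unit is a doubling, and the levels of different genes are not compared because probes differ in brightness. Array medians over all tested probe sets ran from 7.99 to 8.07. The array interquartile range was narrowest in control replicates 1 and 2 (2.19 and 2.15), and 2.27 to 2.5 in the other 11 arrays. Levels of different probes cannot show whether cerebellum was absent: the 10 listed cerebellum markers lay between 5.65 for Gabra6 and 9.70 for Calb1 in fructose samples, and between 5.64 and 9.56 for the same genes in control samples. The labelled tissue was therefore not settled by markers. Slc17a6, the vesicular glutamate transporter of thalamus and brainstem neurons, stood apart in control replicate 8 (9.15) and in fructose replicates 4 and 3 (8.04 and 7.83), and lay between 6.07 and 6.82 in the other 10 arrays.

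No clock gene differed between the groups past the threshold: 0 of the 10 passed an adjusted p of 0.05 in the limma fit over all probe sets, where 0 of 15633 did (0%), and 0 of the 10 had an unadjusted p under 0.05, against 2.23% of all probe sets. The adjusted p from limma was 0.9998 for each of the 10. The mean was higher in the fructose group for 8 of the 10, against 54.1% of all probe sets, and the median difference was 0.022 for the 10 and 0.0056 for all. Without fructose replicate 1, 5 of the 10 were higher and their median was 0.00202, and without fructose replicate 8 that median was 0.0594. It also moved by over 1.5 times without fructose replicate 2 (0.0077) or 4 (0.0419) and without control replicate 2 (0.00751), 3 (0.0394), 5 (0.0404), 7 (0.0367) or 8 (0.00967), so neither the count nor the median was stable to single arrays. After renewed quantile normalization 6 of the 10 were higher and the median of the 10 was 0.0028. The ranges of the groups overlapped for all 10 genes, and they did not overlap for 0.0384% of all probe sets.

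**Figure D1:**
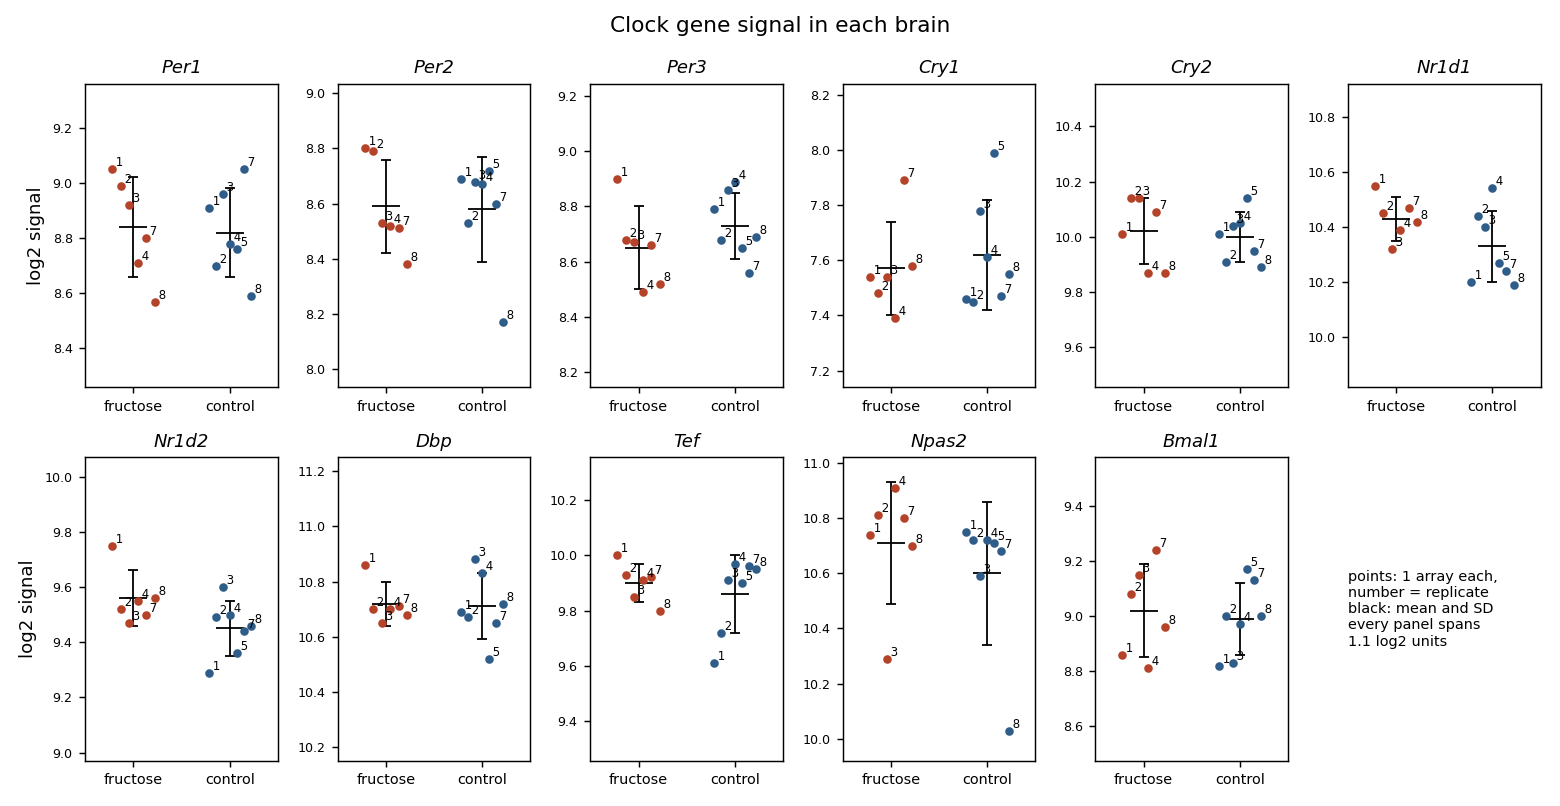
Log2 signal of the 10 clock genes and of Bmal1 in each brain, with fructose arrays left and control arrays right of each panel, and the mean and SD in black. Fructose replicate 1 is the highest point of 6 panels among the 10 genes, and control replicate 8 and fructose replicate 3 lie far below the others for Npas2.

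Among the Period genes, whose proteins are the repressors that enter the nucleus with the Cryptochromes, the groups lay close. Per1 ran from 8.57 over a median of 8.86 to 9.05 in fructose samples, against 8.59, 8.78 and 9.05 in control samples. Its means were 8.84 ± 0.18 (SD, n = 6) in fructose and 8.82 ± 0.16 (SD, n = 7) in control samples, a difference of 0.02 (95% interval -0.17 to 0.20). The 2 lowest arrays, fructose replicate 8 at 8.57 and control replicate 8 at 8.59, came 1 from each group, and so did the 2 highest at 9.05.

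Per2 ran from 8.38 over 8.52 to 8.80 in fructose samples, against 8.17, 8.67 and 8.72 in control samples, with a difference of 0.01 (interval -0.19 to 0.20). Control replicate 8, at 8.17, lay well below the other control arrays, which began at 8.53, and without it the difference was -0.061. The highest values, 8.80 and 8.79, were those of fructose replicates 1 and 2. Per3, the Period gene whose loss disturbs rhythms least in mice, ran from 8.49 over 8.66 to 8.90 in fructose samples, against 8.56, 8.69 and 8.89 in control samples. Its difference of -0.08 (interval -0.23 to 0.07) was the lowest of the 10, and 5 of 6 fructose arrays lay below the control mean. The sixth, fructose replicate 1, was the highest of all 13, and the difference was -0.129 without it.

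The Cryptochromes are repressors that act without light in mammals. Cry1 ran from 7.39 over 7.54 to 7.89 in fructose samples, against 7.45, 7.55 and 7.99 in control samples. Fructose replicate 7 (7.89), control replicate 5 (7.99) and control replicate 3 (7.78) were the 3 highest, and the other 10 arrays lay between 7.39 and 7.61. The difference of -0.04 (interval -0.25 to 0.16) was 0.018 without control replicate 5. Cry2 kept within 0.27 of itself over all 13 arrays, the narrowest range of the 10, from 9.87 over 10.05 to 10.14 in fructose samples, against 9.89, 10.01 and 10.14 in control samples. Its difference was 0.03 (interval -0.10 to 0.15).

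The Rev-erb genes Nr1d1 and Nr1d2, nuclear receptors that bind heme and silence Bmal1, had the lowest unadjusted p of the 10. Nr1d1 ran from 10.32 over 10.43 to 10.55 in fructose samples, against 10.19, 10.27 and 10.54 in control samples. Its means were 10.43 ± 0.08 (SD, n = 6) and 10.33 ± 0.13 (SD, n = 7), a difference of 0.10 ± 0.06 (SE; interval -0.03 to 0.23; unadjusted p = 0.117 by limma). The 4 lowest arrays, from 10.19 to 10.27, were control replicates 8, 1, 7 and 5, while control replicate 4 at 10.54 was next to the highest.

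Nr1d2 ran from 9.47 over 9.54 to 9.75 in fructose samples, against 9.29, 9.46 and 9.60 in control samples. All 6 fructose arrays lay above the control mean of 9.45, with a difference of 0.11 ± 0.06 (SE; interval -0.01 to 0.23; unadjusted p = 0.0648 by limma, adjusted p = 0.9998). The groups still overlapped, since control replicate 3 at 9.60 exceeded 5 fructose arrays. The exact 2-sided permutation test over 1716 splits gave 0.0647 for Nr1d2 and 0.131 for Nr1d1. Both differences kept their sign with any single array left out, at 0.079 to 0.138 for Nr1d1 and 0.073 to 0.136 for Nr1d2, the lowest without fructose replicate 1.

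Of the output genes, Dbp, a transcription factor of the PAR bZIP family that carries the clock's timing to genes of metabolism, ran from 10.65 over 10.70 to 10.86 in fructose samples, against 10.52, 10.69 and 10.88 in control samples. Control replicates 3 and 4 (10.88 and 10.83) and fructose replicate 1 (10.86) lay above the other 10 arrays, which ended at 10.72, and control replicate 5 (10.52) lay below them. The difference was 0.01 (interval -0.11 to 0.13) and its sign turned after renewed quantile normalization, to -0.0063. Tef, a relative of Dbp, ran from 9.80 over 9.92 to 10 in fructose samples, against 9.61, 9.91 and 9.97 in control samples, with a difference of 0.04 (interval -0.09 to 0.18). Control replicates 1 and 2, the narrowest arrays, held its 2 lowest values, 9.61 and 9.72. Without these the Tef difference was -0.036, and its SD between arrays after removal of the group means was 0.0555 in place of 0.114.

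Npas2, the partner of BMAL1 that is prominent in the forebrain, varied most. It ran from 10.29 over 10.77 to 10.91 in fructose samples, against 10.03, 10.71 and 10.75 in control samples, with a difference of 0.11 (interval -0.14 to 0.36). Only control replicate 8 (10.03) and fructose replicate 3 (10.29) lay below 10.59, and the whole range of 0.88 was a 1.83-fold span. The difference was 0.011 without control replicate 8 and 0.189 without fructose replicate 3. Both arrays are among the 3 with the highest Slc17a6, but fructose replicate 4, the third of these, had the highest Npas2 at 10.91.

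**Figure D2:**
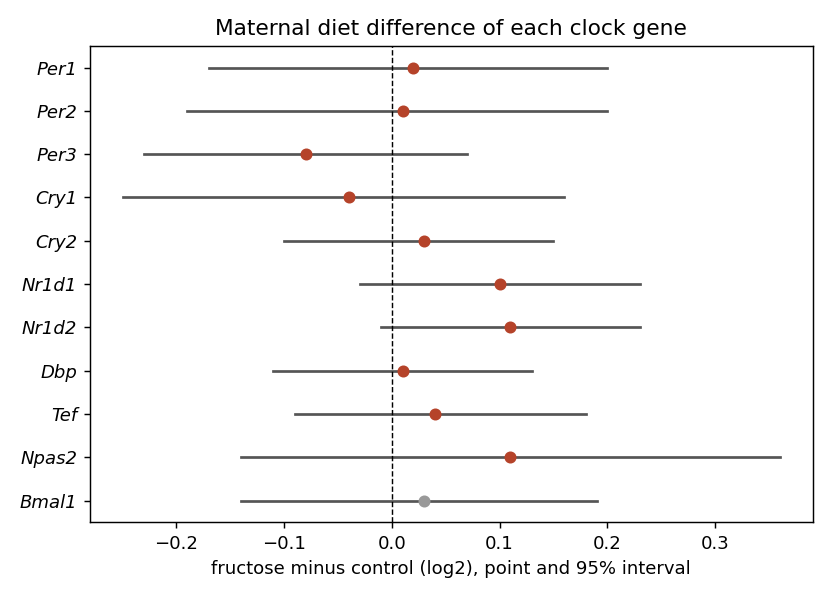
Difference in log2 signal, fructose minus control, with its 95% interval from limma for the 10 clock genes and, in grey, Bmal1. Each interval crosses 0, and those of Nr1d1 and Nr1d2 reach least below it, to -0.03 and -0.01.

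Bmal1, named Arntl in older annotation and itself no member, was at 9.02 ± 0.17 (SD, n = 6) in fructose and 8.99 ± 0.13 (SD, n = 7) in control samples, with a difference of 0.03 (interval -0.14 to 0.19). The spread of the 10 genes between brains was near that of any gene: their median SD after removal of the group means was 0.123, against 0.115 over all probe sets, and 5 of the 10 lay above that median. Npas2 alone was in the top 10% (SD 0.238, percentile 94.2), followed by Cry1 (0.189, percentile 87.6), Per2 (0.182, percentile 86.3) and Per1 (0.17, percentile 82.6). Dbp (0.1, percentile 37.6) and Nr1d2 (0.0984, percentile 35.8) varied least.

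Whether genes of like phase varied together between brains was asked with Pearson and Spearman correlations over the 13 arrays, each with a 2-sided p from 100000 permutations, adjusted over the 55 pairs of the 10 genes and Bmal1. With either coefficient 0 of the 55 pairs passed an adjusted p of 0.05, and 8 had an unadjusted p under 0.05 for Pearson's r. The 12 pairs taken as near in phase were those of Dbp with Nr1d1, Nr1d2, Per3 and Tef, of Nr1d1 with Nr1d2, Per3 and Tef, of Per3 with Nr1d2, Tef and Per2, of Per1 with Per2 and of Npas2 with Bmal1. Of these 11 had a positive r, with a median of 0.4, against a median of 0.18 over all 55 pairs, of which 42 were positive. The 9 pairs taken as opposed were those of Bmal1 with Dbp, Nr1d1, Nr1d2, Per3 and Per2, and of Npas2 and of Cry1 with Dbp and with Nr1d1. Of these 6 had a negative r, with a median of -0.11. The pairs of Tef with Bmal1 (r = 0.23) and with Nr1d2 (r = 0.54) were in neither set, although the phases given above would put them with the opposed and the near pairs.

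The near pairs with the smallest p were the Rev-erb pair and the pair of Per1 and Per2. Nr1d1 and Nr1d2 had r = 0.74 and rho = 0.71 (adjusted permutation p = 0.0643 and 0.277), and r = 0.67 without the 2 arrays farthest from the Nr1d1 median. Within groups r was 0.78 in the fructose and 0.64 in the control arrays (exact permutation p = 0.0861 and 0.128, adjusted 0.411 and 0.785). Per1 and Per2 had r = 0.75 and rho = 0.69 (adjusted permutation p = 0.0643 and 0.277), with r = 0.77 without the 2 arrays farthest from the Per1 median. Within groups it was 0.90 in the fructose and 0.63 in the control arrays (exact permutation p = 0.0194 and 0.12, adjusted 0.382 and 0.785). After renewed quantile normalization both pairs passed, with r = 0.81 and 0.78 (adjusted permutation p = 0.0256 for each). A single array left out moved r within 0.66 to 0.81 for the Rev-erb pair and 0.69 to 0.81 for the Period pair.

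The promoters of Nr1d1, Nr1d2 and Dbp, none of which overlaps its gene's own span, are given in full for the 3 genes whose pairs the next results describe, 250 bases each on GRCr8, with matches of the motifs above in capitals.
Nr1d1, chr10:84231813-84232062, minus strand: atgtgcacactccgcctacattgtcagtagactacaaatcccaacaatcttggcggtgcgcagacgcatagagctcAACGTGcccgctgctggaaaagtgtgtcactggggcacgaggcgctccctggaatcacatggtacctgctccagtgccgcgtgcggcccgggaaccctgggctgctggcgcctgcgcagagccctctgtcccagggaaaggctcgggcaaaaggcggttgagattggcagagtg
Nr1d2, chr15:9954784-9955033, plus strand: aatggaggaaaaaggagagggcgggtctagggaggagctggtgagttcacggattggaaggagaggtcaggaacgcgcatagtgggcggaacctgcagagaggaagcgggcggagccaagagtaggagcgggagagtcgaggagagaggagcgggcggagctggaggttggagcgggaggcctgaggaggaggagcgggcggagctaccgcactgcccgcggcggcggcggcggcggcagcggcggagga
Dbp, chr1:105312006-105312255, plus strand: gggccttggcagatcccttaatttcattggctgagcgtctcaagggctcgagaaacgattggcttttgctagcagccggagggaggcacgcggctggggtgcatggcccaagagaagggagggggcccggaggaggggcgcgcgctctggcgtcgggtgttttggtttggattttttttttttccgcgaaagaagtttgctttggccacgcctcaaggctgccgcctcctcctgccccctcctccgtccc
None of the letters searched for is in the windows of Nr1d2 and Dbp, while that of Nr1d1 holds the E-prime box.

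**Figure D3:**
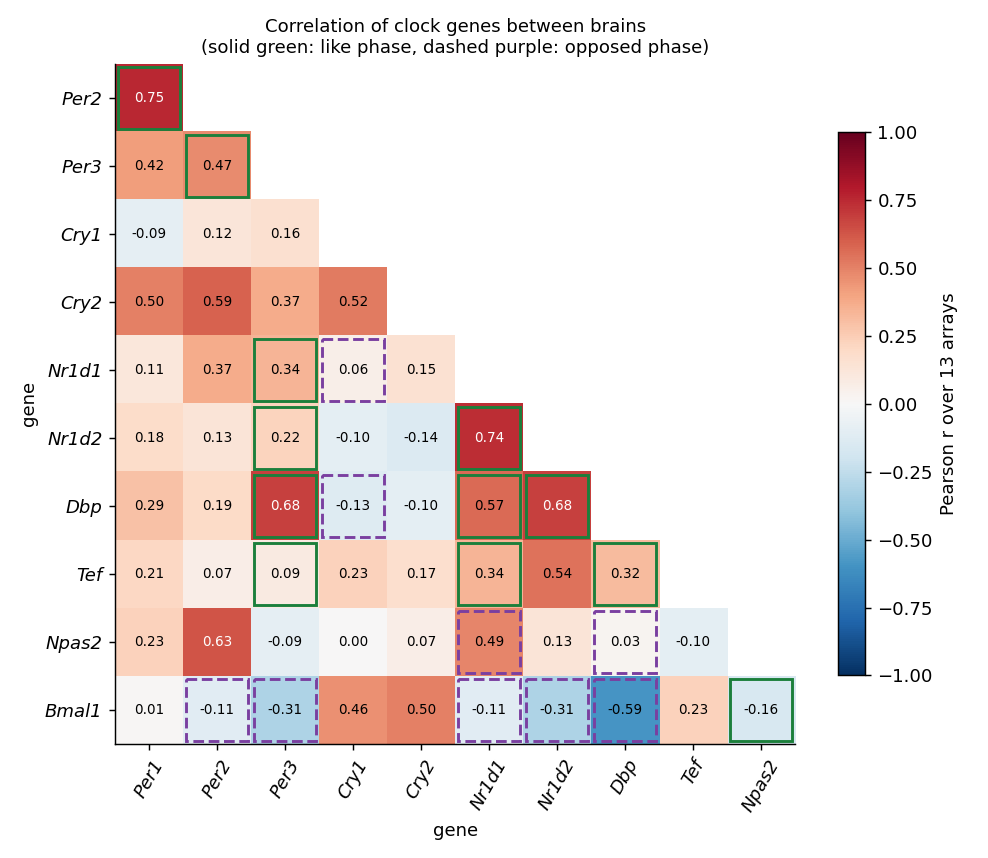
Pearson r between each pair of the 10 clock genes and Bmal1 over 13 arrays, with solid green frames for pairs near in phase and dashed purple frames for opposed pairs. Of the near pairs 11 of 12 are positive, up to 0.75, and the most negative cell, -0.59, is Dbp with Bmal1.

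No pair of Dbp passed. With Nr1d2 it had r = 0.68 and rho = 0.62 (adjusted permutation p = 0.16 and 0.352), 0.75 without the 2 arrays farthest from the Nr1d2 median, and 0.95 in the fructose and 0.70 in the control arrays (exact permutation p = 0.0417 and 0.0764, adjusted 0.407 and 0.6). With Nr1d1 r was 0.57 and rho 0.46 (adjusted permutation p = 0.283 and 0.511). With Bmal1, the opposed partner, r was -0.59 and rho -0.47 (adjusted permutation p = 0.274 and 0.511), and -0.48 in the fructose and -0.73 in the control arrays (exact permutation p = 0.385 and 0.047, adjusted 0.756 and 0.517). It was -0.39 without control replicates 3 and 5, the 2 arrays farthest from the Dbp median.

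Per3 and Dbp had r = 0.68 and rho = 0.68 (adjusted permutation p = 0.16 and 0.277), and r from 0.59 to 0.78 with 1 array left out. Within groups r was 0.76 in the fructose and 0.79 in the control arrays (exact permutation p = 0.0889 and 0.0333, adjusted 0.411 and 0.517). The 3 arrays high in Dbp, fructose replicate 1 and control replicates 3 and 4, also had the 3 highest Per3 values, 8.90, 8.86 and 8.89. Control replicate 1 came next in Per3 at 8.79. Over the other 10 arrays, a split chosen after seeing the values, r of Dbp was 0.01 with Per3, 0.43 with Nr1d2, 0.24 with Nr1d1 and -0.4 with Bmal1, while r of Nr1d1 with Nr1d2 was 0.74 and that of Per1 with Per2 was 0.71. Leaving out the arrays highest in both genes tends to lower r by itself, so the 0.01 does not show that Dbp and Per3 are unrelated. Bmal1 was 8.86 in fructose replicate 1 and 8.83 and 8.97 in control replicates 3 and 4, each below the control mean of 8.99. Its lowest values were in other arrays, 8.81 in fructose replicate 4 and 8.82 in control replicate 1, where Dbp was 10.70 and 10.69.

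Fructose replicate 1 was the highest of the 13 arrays in 6 of the 10 genes, Per1, Per2, Per3, Nr1d1, Nr1d2 and Tef, and second to control replicate 3 in Dbp. No other array was the highest in more than 1. Genes outside the clock, such as Mbp, Hbb and Sgk1, were also highest in fructose replicate 1, and others, such as Snap25 and Gfap, were not. The share of all probe sets highest in that array was not counted, so the 6 of 10 cannot be called particular to clock genes. Among the lowest values 3 belonged to fructose replicate 4 (Per3, Cry1 and Cry2) and 3 to control replicate 8 (Per2, Nr1d1 and Npas2). The part of the hour of sampling in these values was not tested.

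Among the remaining pairs, Tef, near Dbp in phase, had r = 0.32 with Dbp, 0.34 with Nr1d1, 0.54 with Nr1d2, 0.09 with Per3 and 0.23 with Bmal1. Without control replicates 1 and 2, where Tef is lowest, r was 0.43 with Dbp and 0.55 with Per3 but 0.20 with Nr1d1, 0.23 with Nr1d2 and -0.15 with Bmal1. Npas2, which shares its ROR control with Bmal1, had r = -0.16 with Bmal1, 0.49 with Nr1d1 and 0.63 with Per2 over the 13 arrays. The adjusted permutation p was 0.884, 0.365 and 0.274, and the r with Nr1d1 was the highest of the 9 opposed pairs. Over the 11 arrays without control replicate 8 and fructose replicate 3, a split chosen after seeing the values, r was -0.0041 with Bmal1, 0.12 with Nr1d1 and -0.09 with Per2. Control replicate 8 was also the lowest array in Nr1d1 and Per2. Leaving it out tends to lower r by itself, so these r do not show that the genes are unrelated. Cry1, delayed against the other repressors, had r = 0.06 with Nr1d1 and -0.13 with Dbp, and r with Dbp was 0.41 without control replicate 5. Per3 had r = 0.34 with Nr1d1, 0.22 with Nr1d2 and 0.47 with Per2 (adjusted permutation p = 0.725, 0.884 and 0.407). Without fructose replicate 1 and control replicate 4, farthest from the Per3 median, r was -0.14 with Nr1d1 and -0.21 with Nr1d2. Within groups r of Per3 with Nr1d1 was 0.65 in the fructose and 0.57 in the control arrays.

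**Figure D4:**
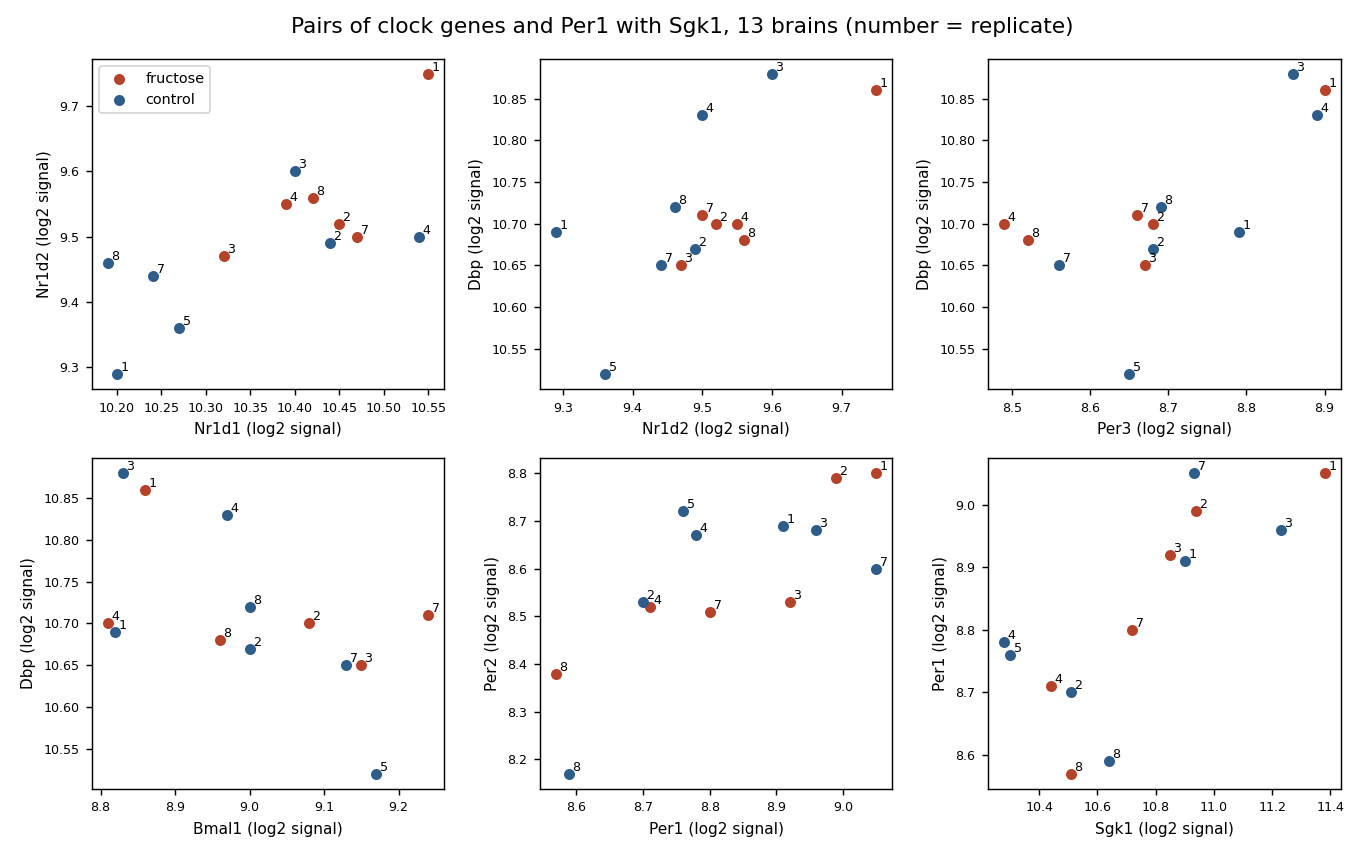
Log2 signal of 5 pairs of clock genes and of Per1 with Sgk1 in the 13 brains, fructose in red and control in blue, numbered by replicate. In the panel of Dbp against Per3, fructose replicate 1 and control replicates 3 and 4 lie apart at the upper right, and the panel of Dbp against Bmal1 slopes the other way (r = -0.59).

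Set among all 15309 other probe sets with 1 gene symbol, ordered by Pearson r of deviations from the group means with Dbp, Nr1d2 ranked 13 (r = 0.77), Per3 ranked 26 (r = 0.74), Nr1d1 ranked 221 (r = 0.61), Tef, taken as near in phase, ranked 2295 (r = 0.31), and Bmal1 ranked 15148 (r = -0.59). Of the partners of Dbp taken as opposed, Npas2 ranked 7694 (r = 0.01) and Cry1 10492 (r = -0.13). Without the 3 arrays high in both genes, r of the levels of Dbp and Per3 was 0.01, as given above with its limit. With Nr1d1 as the start, Nr1d2 ranked 218 (r = 0.66), Dbp 384 (r = 0.61), Per3 579 (r = 0.56), Tef 3194 (r = 0.28) and Bmal1 10550 (r = -0.17). Npas2, taken as opposed, ranked 1352 (r = 0.44) and Per2 1723 (r = 0.41), both ahead of Tef. Cry1, also taken as opposed, ranked 5658 (r = 0.13). Without the 3 arrays highest in Slc17a6, r of Nr1d1 was -0.10 with Npas2, 0.09 with Per2 and 0.42 with Tef. Over the levels, r of Nr1d1 with Per3 was 0.34, as given above. With Per2 as the start, Per1 ranked 81 (r = 0.75), Npas2 350 (r = 0.64), Cry2 509 (r = 0.60), Per3 1015 (r = 0.50) and Bmal1 10105 (r = -0.11). Without the 3 arrays highest in Slc17a6, r of Per2 was 0.73 with Per1, 0.23 with Npas2, 0.67 with Cry2 and 0.64 with Per3. These ranks describe the 13 arrays, which differ in width and in the levels of region markers. The part of either in the ranks was not tested. The 5 genes most like Dbp were Mutyh, P2rx6, Armc5, Dazap1 and Klhl10, with r from 0.80 to 0.82, and those most like Nr1d1 were Ugt2b1, Cdc20, Ikbke, Cplx1 and Or1e25, with r from 0.86 to 0.90. The 5 probe sets most like Per2 were 3 annotated to Spetex2el3 and those of Nin and Kalrn, with r from 0.87 to 0.93. Npas2 was matched most closely by Necab1, Fezf2, Zbtb16, Bmp15 and Man2a1, with r from 0.93 to 0.96, and Fezf2 is a transcription factor of deep cortical layers. Without the 3 arrays highest in Slc17a6 r was 0.79 for Necab1, 0.62 for Fezf2, 0.30 for Zbtb16, 0.56 for Bmp15 and 0.15 for Man2a1.

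Period genes are also switched on by glucocorticoids and by CREB signalling. Per1 and Per2 were therefore set against Fos, Egr1 and Dusp1, which respond to neuronal activity, and Sgk1, Fkbp5 and Tsc22d3, targets of the glucocorticoid receptor, in a family of 12 correlations. Every r was positive, and 2 of the 12 passed, both of Per1. Per1 with Sgk1 had r = 0.76 and rho = 0.80 (adjusted permutation p = 0.0305 and 0.0198), with 0.69 without the 2 arrays farthest from the Per1 median. Per1 with Egr1 had r = 0.70 and rho = 0.75 (adjusted permutation p = 0.0439 and 0.0289), with 0.64 without those 2 arrays.

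Sgk1 ran from 10.44 to 11.38 in fructose samples, against 10.28 to 11.23 in control samples, and fructose replicate 1 and control replicate 3 were its highest arrays. The correlation with Sgk1 did not pass without fructose replicate 1, 2 or 3 or control replicate 1, each left out alone, with r never below 0.71. That with Egr1 did not pass in 8 of the 13 such fits, without fructose replicate 1, 2 or 3 or control replicate 1, 4, 5, 7 or 8. Without control replicates 1 and 2 neither passed (adjusted permutation p = 0.0663 for both). Per2 reached r = 0.61 with Egr1 (adjusted permutation p = 0.067) and 0.11 with Fkbp5 (0.728). Whether Per1 and Per2 differ in this was not tested.

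Because a bulk brain sample mixes regions, each of the 10 genes was set against the mean of 4 lists of region markers and against the array's interquartile range, in a family of 50 correlations. Fewer cells of a type and less RNA per cell cannot be told apart in such samples. One correlation passed, that of Per1 with thalamus and brainstem markers (8 of 13 measured), with r = -0.79 and rho = -0.79 (adjusted permutation p = 0.0165 and 0.0975). It was -0.75 without fructose replicate 1 and control replicate 7, and it did not pass without control replicate 7 or control replicate 8 alone, with r between -0.84 and -0.76 over all such fits. This list ran from 6.90 to 7.19 in fructose samples, against 6.83 to 7.47 in control samples, with control replicate 8 at 7.47. Its genes did not move as 1: Slc17a6 and Lhx9 were highest in control replicate 8, Slc6a5 in control replicate 5 and Prkcd in control replicate 4. Per2 had r = -0.79 and rho = -0.64 with the same list (adjusted permutation p = 0.0617 and 0.371). Its r was -0.27 without control replicate 8 and fructose replicate 8, the 2 arrays farthest from the Per2 median. The pair passed after renewed quantile normalization (r = -0.85, adjusted permutation p = 0.0175) and with deviations from group means (r = -0.79, adjusted permutation p = 0.049).

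Cry2 had r = -0.71 and rho = -0.62 with markers of meninges and fibroblasts, of which 10 of 10 were measured (adjusted permutation p = 0.079 and 0.371). It passed without control replicates 1 and 2 (r = -0.91, adjusted permutation p = 0.00875). Over all 13 arrays it passed after renewed quantile normalization (r = -0.91, adjusted permutation p = 0.002) and with deviations from group means (r = -0.74, adjusted permutation p = 0.049). Without the 3 arrays highest in Slc17a6 it did not pass (r = -0.50, adjusted permutation p = 0.655). The meninges and fibroblasts list ran from 7.89 to 9.03 in fructose samples, against 7.71 to 8.91 in control samples. For Npas2 the 2 low arrays stood apart in the striatum list too (11 of 12 measured), with control replicate 8 at 8.69 and fructose replicate 3 at 8.51, against 7.98 to 8.21 in the other 11 arrays. Over all 13 arrays r of Npas2 with striatum was -0.90 and rho -0.32 (adjusted permutation p = 0.0617 and 0.637). That r passed with deviations from group means (adjusted permutation p = 0.049). Npas2 had r = 0.71 with cortex and hippocampus (7 of 12 measured) and -0.61 with thalamus and brainstem markers (adjusted permutation p = 0.0801 and 0.243). Over the 11 arrays without the 2 low ones, a split chosen after seeing the values, r was 0.09 with striatum, 0.18 with cortex and hippocampus and 0.19 with thalamus and brainstem markers. Leaving out the 2 arrays lowest in Npas2 tends to weaken r by itself, so these values do not show that Npas2 and the markers are unrelated. The part of these markers in the values of Per1, Per2, Cry2 and Npas2 was not tested.

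The array width had its highest r with Tef. That r with the interquartile range was 0.76 (rho 0.38, adjusted permutation p = 0.0617 and 0.567), and 0.27 over the 11 arrays without control replicates 1 and 2. It passed with deviations from group means (r = 0.75, adjusted permutation p = 0.049). For the other 9 genes r with the interquartile range lay between -0.24 and 0.59, with Cry1 the highest (adjusted permutation p = 0.208).

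**Figure D5:**
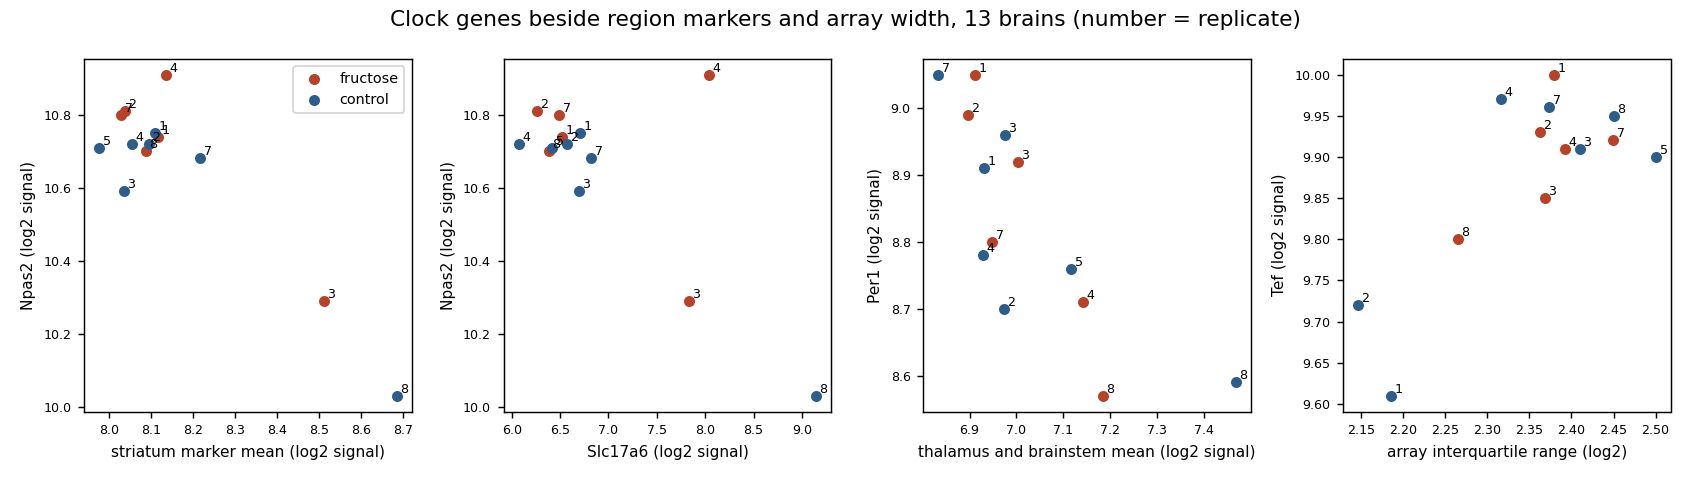
Log2 signal of Npas2 against the striatum marker mean and against Slc17a6, of Per1 against the thalamus and brainstem marker mean, and of Tef against the interquartile range of the array, 13 brains numbered by replicate. Control replicate 8 and fructose replicate 3 are low in Npas2 and high in striatum markers, and control replicates 1 and 2 are low in Tef and narrow in range.

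Of a list of 26 other genes of the clock, 18 were measured by a probe set with 1 symbol, of which 10 had a higher and 8 a lower mean in fructose samples, with 0 past the threshold and a median difference of 0.009. Over all probe sets 54.1% were higher, with a median difference of 0.0056. Usp2, a deubiquitinase gene whose transcripts follow the clock, was at 9.44 in fructose and 9.31 in control samples, a difference of 0.13 ± 0.04 (SE; unadjusted p = 0.00717, adjusted p = 0.9998 by limma), the smallest p of the list. Btrc, a subunit of the ubiquitin ligase that marks Period proteins for breakdown, differed by 0.09, Tipin by -0.09 and Prkab1, a subunit of AMP-activated kinase, by 0.07, all with an adjusted p = 0.9998 by limma. Clock differed by 0.02, and the casein kinases Csnk1d and Csnk1e, which phosphorylate Period proteins, by 0.01 and 0.02. Of the 9 measured genes of the signal-induced list (10 named) 7 were higher and 2 lower, with a median difference of 0.092 and 0 past the threshold. The same share of 54.1% and median of 0.0056 over all probe sets stand beside these. Whether this list differs from them was not tested.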

How the data were processed

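The authors deposited log2 signals of an Affymetrix rat gene array, 29214 probe sets on 13 arrays, 1 array a sample. Per the submitters' processing notes the tools were R 3.0.1 and RMA, which corrects background, equalises distributions and summarises probes. Over the tested probe sets the deposited values were still unequal in width, with array interquartile ranges from 2.15 to 2.5. No detection p-values were used, so whether dim signals exceed background is not known here. Precision is limited by how many arrays there are. Genes came from the platform annotation.

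The 15633 probe sets with a gene were fitted with limma 3.58.1 (lmFit, eBayes) in R 4.3.3, fructose minus control, without a filter, and p-values were adjusted by Benjamini-Hochberg over all of them, with a threshold of 0.05. Correlations used the brightest probe set of a gene, with permutation p-values (Python 3.11.15, scipy 1.17.1) adjusted within each family. Scripts were tested on simulated data. Named were all 10 genes and Bmal1, 4 other clock genes with the smallest p, genes past the threshold and the 5 probe sets most like Dbp, Nr1d1, Per2 and Npas2. A few other genes of the lists, and splits said to be so, were chosen after values were seen. Genes and lists were chosen with earlier results of these data known. Groups share replicate numbers, but only 1 of 6 same-numbered pairs had deviations that correlated over 0.1, so the numbers were not taken as pairs.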

Additional observations from a re-analysis of the deposited data

Results flagged for a closer look

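Each of the 10 genes was checked in each group for an array far from the rest, 20 checks in all, of which chance flags about 5%. In 5 of them 1 array stood out by the size of its gap to the nearest other array. The share that the same rule flags over all probe sets was not counted, so whether 5 of 20 is many for these arrays is not known. Dbp in fructose replicate 1 was 10.86, with the other fructose arrays between 10.65 and 10.71, and Nr1d2 in the same array was 9.75, with the others between 9.47 and 9.56. Npas2 was 10.29 in fructose replicate 3, with the other fructose arrays between 10.70 and 10.91, and 10.03 in control replicate 8, with the other control arrays between 10.59 and 10.75. Per2 was 8.17 in control replicate 8, with the others between 8.53 and 8.72.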

How the results depend on the processing

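The count of clock genes past the threshold stayed at 0 under each setting tried, and so did that of all probe sets. With the replicate number as a block 0 of the 10 clock genes passed, the Cry1 difference turned to 0.0176 and that of Dbp to -0.0206. That fit in effect drops control replicate 5, whose number no fructose array shares. The shared numbers are no known pairing, and 0 of 6 fructose arrays correlated best with their own number. Differences near 0 changed sign elsewhere: Per1 without the 3 arrays highest in Slc17a6 (-0.00828), Per2 without these (-0.0297) and after renewed quantile normalization (-0.00382), Dbp after quantile normalization (-0.00626), with array weights (-0.00953) and without control replicates 1 and 2 (-0.00134), and Tef without that pair (-0.036). With 1 array left out the differences ran from -0.0248 to 0.0722 for Per1, -0.0615 to 0.0489 for Per2, -0.109 to 0.0176 for Cry1 and -0.0206 to 0.0384 for Dbp. Clock pairs past the threshold numbered 2 after quantile normalization and 0 to 1 with 1 array left out, in place of 0. Region correlations past the threshold numbered 3 after quantile normalization, 5 with deviations from group means, 2 without control replicates 1 and 2, 0 with Spearman's rho, 0 without the 3 arrays highest in Slc17a6 and 0 to 2 with 1 array left out, in place of 1. Those of Per1 and Per2 with induced genes numbered 6 after quantile normalization, 4 with deviations, 0 without control replicates 1 and 2, 0 without the 3 arrays highest in Slc17a6 and 0 to 4 with 1 array left out, in place of 2. Leaving out those 3 arrays was chosen after seeing the data. Weak correlations changed sign: Per3 with Tef within control (-0.09), Cry1 with Nr1d1 after quantile normalization (-0.10), without control replicates 1 and 2 (-0.0018) and without the 3 arrays highest in Slc17a6 (-0.01), Cry1 with Dbp by rho (0.18), Dbp with Npas2 without the 3 arrays (-0.25) and within control (-0.13), Per3 with Bmal1 within fructose (0.07), Nr1d1 with Bmal1 by rho (0.02), and Npas2 with Bmal1 without the 3 arrays (0.40) and within control (0.00089). With 1 array left out r ran from -0.14 to 0.43 for Per3 with Nr1d2, -0.07 to 0.38 for Per3 with Tef, -0.06 to 0.31 for Cry1 with Nr1d1, -0.35 to 0.41 for Cry1 with Dbp, -0.08 to 0.09 for Dbp with Npas2, -0.21 to 0.0021 for Per2 with Bmal1 and -0.32 to 0.02 for Nr1d1 with Bmal1. The cause of these changes was not tested. A mean over probe sets was not run, since each clock gene had 1.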
